A study of Rattus norvegicus with 8 samples.

Results

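The 7 genes described here encode intermediate filament proteins: Nefl, Nefm and Nefh (the light, medium and heavy neurofilament chains), Prph (peripherin), Ina (alpha-internexin), Vim (vimentin) and Nes (nestin). They were chosen by name from the 17379 genes measured, and all 7 were found in every library and passed the expression filter of every test. RNA came from sensory neurons of the dorsal root ganglia of rats at embryonic day 15, cultured for 7 days in microfluidic chambers, in which axons grow apart from the cell bodies. Lentivirus given at plating carried a hairpin RNA against Pum2 (shPum2), whose product Pumilio 2 is an RNA-binding protein, or a control hairpin (shControl), so neurons of all groups were transduced. The 4 groups of 2 libraries each were axonal shPum2, axonal shControl, somatic shPum2 and somatic shControl. The compartment labelled somatic held cell bodies with axons as the source of its RNA. Axonal libraries came from an ultra-low input kit and somatic ones from a standard kit, and these differences of compartment and of kit cannot be told apart in any comparison below. The labels do not say whether the libraries of a group came from separate cultures, so each p-value measures the spread between these libraries alone.

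Intermediate filaments are rope-like polymers that fill the axon and set its calibre. In mature neurons the light chain is needed for neurofilament assembly, the medium and heavy chains carry long phosphorylated tails, and alpha-internexin or peripherin joins them as a further subunit. Peripherin is typical of peripheral neurons, and the heavy chain is known to appear later in development than the light and medium chains. Vimentin and nestin are known from progenitors and from non-neuronal cells such as fibroblasts and Schwann cells, and vimentin is also made by young neurons.

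Promoter sequence was available for 4 of the 7 genes in a RefSeq table (assembly GRCr8), and the 250 bases before the annotated start are shown because they set the neuronal genes Prph and Ina beside Vim and Nes, which varied most between somatic libraries. Every one lies on the plus strand: Prph at chr7:132097039-132097288, Ina at chr1:255837879-255838128, Vim at chr17:81577011-81577260 and Nes at chr2:175736338-175736587. Capitals mark matches on either strand to the GC box GGGCGG, the CCAAT box CCAAT and the TATA box TATAAA.
Prph: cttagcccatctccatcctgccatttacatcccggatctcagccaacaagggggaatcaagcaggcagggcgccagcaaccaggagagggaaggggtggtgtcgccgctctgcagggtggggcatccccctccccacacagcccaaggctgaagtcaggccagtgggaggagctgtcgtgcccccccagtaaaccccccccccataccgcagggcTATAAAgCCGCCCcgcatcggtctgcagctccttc
Ina: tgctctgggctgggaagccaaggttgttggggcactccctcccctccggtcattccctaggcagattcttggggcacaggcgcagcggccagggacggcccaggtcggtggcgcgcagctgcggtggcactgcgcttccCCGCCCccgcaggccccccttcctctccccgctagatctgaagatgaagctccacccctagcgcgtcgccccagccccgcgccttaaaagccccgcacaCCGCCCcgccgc
Vim: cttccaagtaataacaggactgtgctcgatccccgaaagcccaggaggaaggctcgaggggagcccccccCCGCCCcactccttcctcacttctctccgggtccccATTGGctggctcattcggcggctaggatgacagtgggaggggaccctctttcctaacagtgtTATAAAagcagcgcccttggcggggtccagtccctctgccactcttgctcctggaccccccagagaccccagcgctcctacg
Nes: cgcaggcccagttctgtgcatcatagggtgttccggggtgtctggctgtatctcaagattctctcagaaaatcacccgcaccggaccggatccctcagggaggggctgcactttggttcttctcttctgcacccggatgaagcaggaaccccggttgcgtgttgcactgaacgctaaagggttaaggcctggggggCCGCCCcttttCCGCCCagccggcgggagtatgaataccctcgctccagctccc
Ina and Nes each held 2 GC boxes and neither of the other motifs marked. Prph held 1 GC box and 1 TATA box, and Vim held 1 of each of the 3 motifs. Among 33469 rat promoters cut to the same length, 30.5% held a GC box, 34% a CCAAT box and 12.9% a TATA box. An AP-1 motif (TGANTCA, in 6.34% of promoters) had no match in the 4 windows. These matches describe letters only. In the order of protein-coding genes on the same assembly, Nefl and Nefm were direct neighbours, while the other members were flanked by genes of other families, such as Tuba1a beside Prph and Crabp2 beside Nes.

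Library totals lay between 11641980 and 16131627 estimated counts in axonal and between 16725902 and 25821800 in somatic libraries. Axonal libraries detected 9540 to 10728 genes and somatic libraries 14035 to 14260. The top 10 genes of a library held 24.3% to 30.4% of axonal and 5.92% to 6.60% of somatic counts. Pum2 itself was at 38.2 and 36.5 CPM (counts scaled to the library total) in somatic shPum2, against 164 and 160 CPM in somatic shControl libraries, a 4.36-fold fall (adjusted p = 0.0247, edgeR quasi-likelihood test with Benjamini-Hochberg adjustment). In axonal libraries Pum2 was at 1.46 and 7.07 CPM with shPum2 and at 3.25 and 0.443 CPM with shControl, so a knockdown was not detectable there. Of 12 neuron markers 11 had a row, all above 0 in every library, with sums of 5270 to 7564 CPM in axonal and 12778 to 15353 CPM in somatic libraries.

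The 3 neurofilament chains differed in how their axonal and somatic levels compared. Levels are given in TPM, a share of transcripts that is scaled for length and so can be compared between genes. Nefm was at 6548 and 3324 TPM in axonal shPum2, 3994 and 2731 TPM in axonal shControl, 5047 and 5740 TPM in somatic shPum2 and 5763 and 5706 TPM in somatic shControl libraries. In axons 1 library lay above all somatic libraries and the other 3 below them, and Nefm ranked 20 to 67 among all genes there, against 6 in each somatic library. Nefl stood at 981 and 661 TPM in axonal shPum2, 311 and 624 TPM in axonal shControl, 2876 and 3346 TPM in somatic shPum2 and 3571 and 3276 TPM in somatic shControl libraries. Every axonal value of Nefl was below every somatic value. Nefh was the scarce chain, at 2.60 and 4.04 TPM in axonal shPum2, 0.909 and 0.124 TPM in axonal shControl, 61.8 and 73.8 TPM in somatic shPum2 and 80.9 and 71.4 TPM in somatic shControl libraries. The axonal values rested on 139 and 354 estimated counts with shPum2 and on 55 and 8 with shControl.

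Peripherin, the subunit of peripheral neurons, was the most abundant of the 7 in somatic libraries. Prph had 923 and 799 TPM in axonal shPum2, 465 and 600 TPM in axonal shControl, 8819 and 9741 TPM in somatic shPum2 and 10746 and 10517 TPM in somatic shControl libraries, where it ranked 3 among all genes in each library. Ina had 20.7 and 13.2 TPM in axonal shPum2, 2.87 and 38.7 TPM in axonal shControl, 334 and 392 TPM in somatic shPum2 and 381 and 403 TPM in somatic shControl libraries. For both genes the axonal and somatic libraries did not overlap. The axonal shControl pair of Ina enclosed both axonal shPum2 values.

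Vim and Nes varied more among somatic libraries than the neuronal genes did. Vim was at 178 and 94.4 TPM in axonal shPum2, 86.7 and 239 TPM in axonal shControl, 1473 and 642 TPM in somatic shPum2 and 935 and 648 TPM in somatic shControl libraries. Nes was at 0.844 and 1.46 TPM in axonal shPum2, 2.59 and 2.60 TPM in axonal shControl, 29.1 and 5.21 TPM in somatic shPum2 and 11.8 and 4.59 TPM in somatic shControl libraries. Both genes were highest in replicate 1 of somatic shPum2, next in replicate 1 of somatic shControl, and lower in all axonal than in all somatic libraries.

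**Figure D1:**
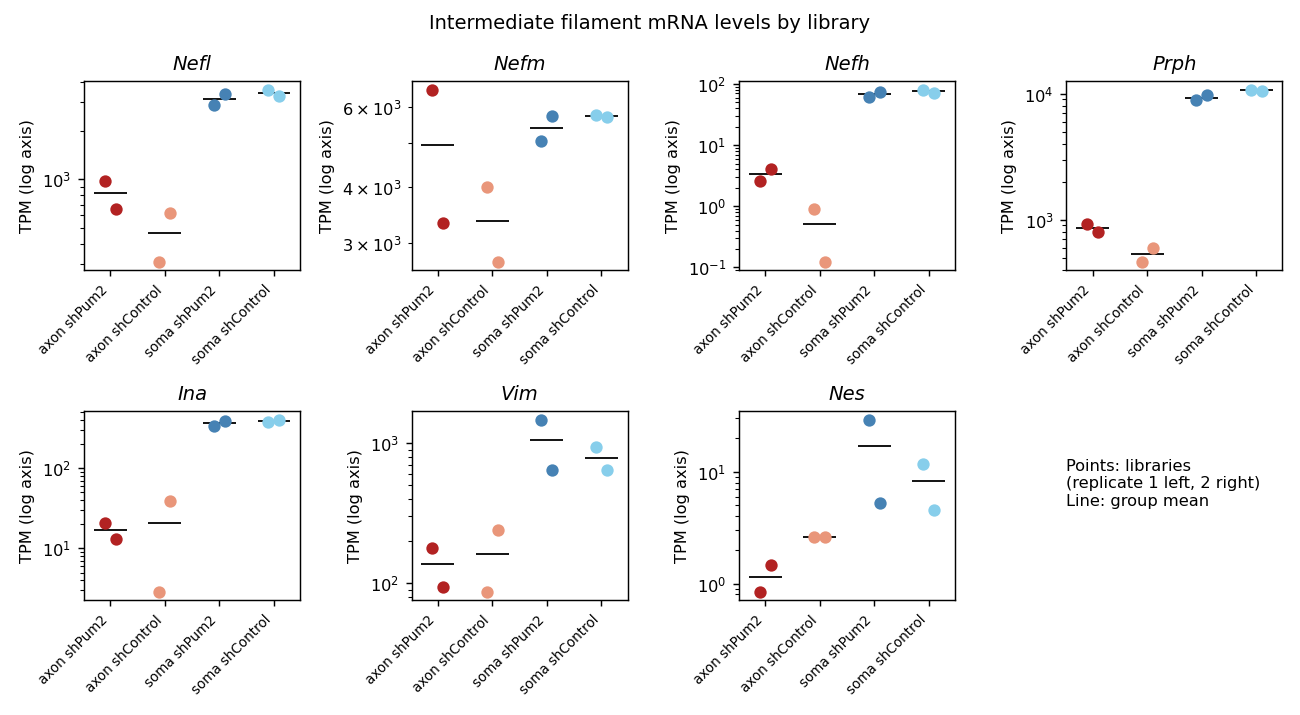
Level of each of the 7 genes in the 8 libraries, in TPM on a logarithmic axis, with a point per library and a line at the group mean. Prph lies between 465 and 923 TPM in axonal libraries and between 8819 and 10746 TPM in somatic libraries, while the ranges of Nefm overlap.

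In somatic libraries the order of the levels in TPM was Prph, Nefm, Nefl, Vim, Ina, Nefh and Nes, and no neighbours in that order overlapped over the 4 libraries. The closest neighbours by ratio were Nefm, at 5047 TPM or more, and Nefl, at 3571 TPM or less. In axonal libraries Nefm came first in each library. Nefl and Prph overlapped there (311 to 981 and 465 to 923 TPM), as did Nefh and Nes (0.124 to 4.04 and 0.844 to 2.60 TPM), and Ina, at its lowest 2.87 TPM, reached into the range of Nefh. Group means with their spread were 4936 ± 2280 TPM in axonal shPum2, 3363 ± 893 TPM in axonal shControl, 5394 ± 490 TPM in somatic shPum2 and 5735 ± 40.0 TPM in somatic shControl libraries for Nefm (SD, n = 2). For Nefl they were 821 ± 226 TPM in axonal shPum2, 468 ± 221 TPM in axonal shControl, 3111 ± 333 TPM in somatic shPum2 and 3424 ± 209 TPM in somatic shControl libraries (SD, n = 2). For Prph they were 861 ± 87.0 TPM in axonal shPum2, 532 ± 95.1 TPM in axonal shControl, 9280 ± 652 TPM in somatic shPum2 and 10632 ± 162 TPM in somatic shControl libraries (SD, n = 2).

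The make-up of the intermediate filament mRNA pool differed between the compartments. The 7 genes together took 0.865% and 0.490% of all TPM in axonal shPum2, 0.486% and 0.424% in axonal shControl, 1.86% and 1.99% in somatic shPum2 and 2.15% and 2.06% in somatic shControl libraries. Of that pool, Nefm made up 75.7% and 67.9% in axonal shPum2, 82.1% and 64.5% in axonal shControl, 27.1% and 28.8% in somatic shPum2 and 26.8% and 27.7% in somatic shControl libraries. Prph made up 10.7% and 16.3% in axonal shPum2, 9.56% and 14.2% in axonal shControl, 47.3% and 48.9% in somatic shPum2 and 50.0% and 51.0% in somatic shControl libraries. The medium chain was thus the leading message of the pool in all 4 axonal libraries and peripherin in all 4 somatic libraries. Nefl held 6.40% to 14.7% of the axonal pool and 15.4% to 16.8% of the somatic pool.

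**Figure D2:**
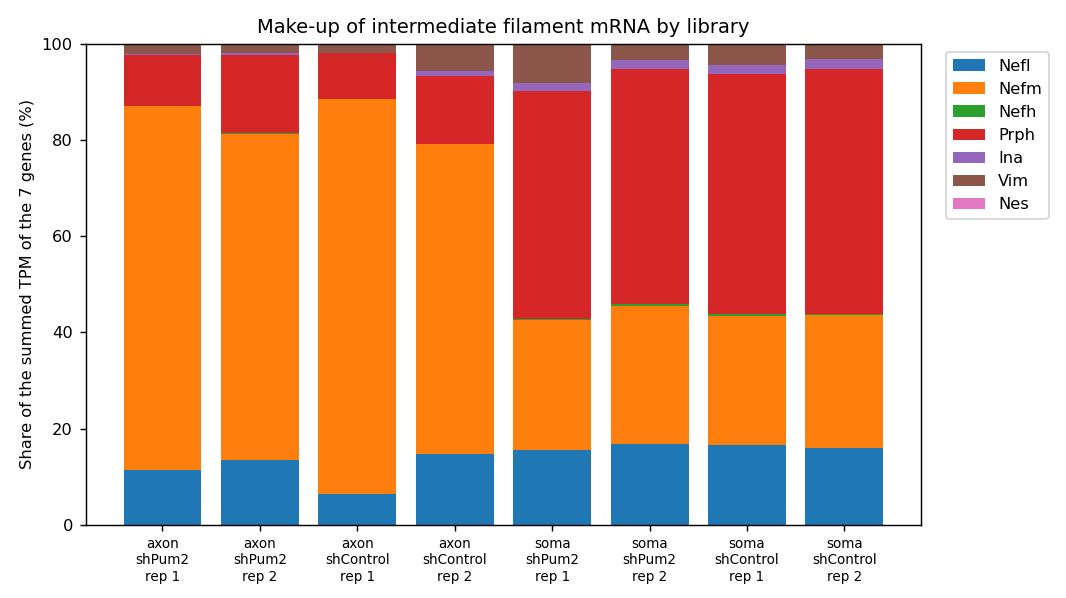
Share of the summed TPM of the 7 genes that each gene takes, in percent, with a stacked bar per library. Nefm takes 64.5% to 82.1% of the axonal bars and 26.8% to 28.8% of the somatic bars, and Prph takes 9.56% to 16.3% and 47.3% to 51.0%.

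Because a ratio of 2 genes within a library does not depend on how libraries are scaled, each member was set against Nefl, the chain needed for assembly. Per Nefl transcript, Nefm was at 6.68 and 5.03 in axonal shPum2, 12.8 and 4.38 in axonal shControl, 1.76 and 1.72 in somatic shPum2 and 1.61 and 1.74 in somatic shControl libraries. The ratio was 3.86-fold higher in axonal than in somatic libraries (log2 difference 1.95, n = 4 and 4, two-sided exact permutation p = 0.0286, adjusted p = 0.0429 over 6 ratios). The p of 0.0286 is the smallest that 4 against 4 libraries can give. Prph per Nefl was at 0.940 and 1.21 in axonal shPum2, 1.49 and 0.961 in axonal shControl, 3.07 and 2.91 in somatic shPum2 and 3.01 and 3.21 in somatic shControl libraries. It was 2.70-fold lower in axonal libraries, Ina per Nefl was 5.15-fold lower and Nefh per Nefl was 10.4-fold lower, each with the same exact permutation p and adjusted p. These folds and tests are on the scale of log2(TPM + 0.1). Axonal Nefh went down to 0.124 TPM, close to the added 0.1, so the size of its fold depends on that constant.

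For these 4 ratios every axonal library lay on the same side of every somatic library. The Nefh ratio was nearly constant in the somatic compartment, between 0.0215 and 0.0226 over the 4 libraries, and spread from 0.000199 to 0.00611 over the axonal ones. On the log2 scale its SD was 1.78 in axonal and 0.03 in somatic libraries. Ina per Nefl ran from 0.00921 to 0.0620 in axonal and from 0.107 to 0.123 in somatic libraries. Vim and Nes did not pass: Vim per Nefl ran from 0.143 to 0.383 in axonal and from 0.192 to 0.512 in somatic libraries (log2 difference -0.22, exact permutation p = 0.714, adjusted p = 0.857). Nes per Nefl ran from 0.000860 to 0.00831 in axonal and from 0.00140 to 0.0101 in somatic libraries (log2 difference 0.03, exact permutation p = 0.971, adjusted p = 0.971). All 6 ratios share Nefl as their denominator and are not independent of each other. With any 1 library left out, the smallest exact permutation p that 3 against 4 libraries can give is 0.0571, so no ratio can pass then.

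**Figure D3:**
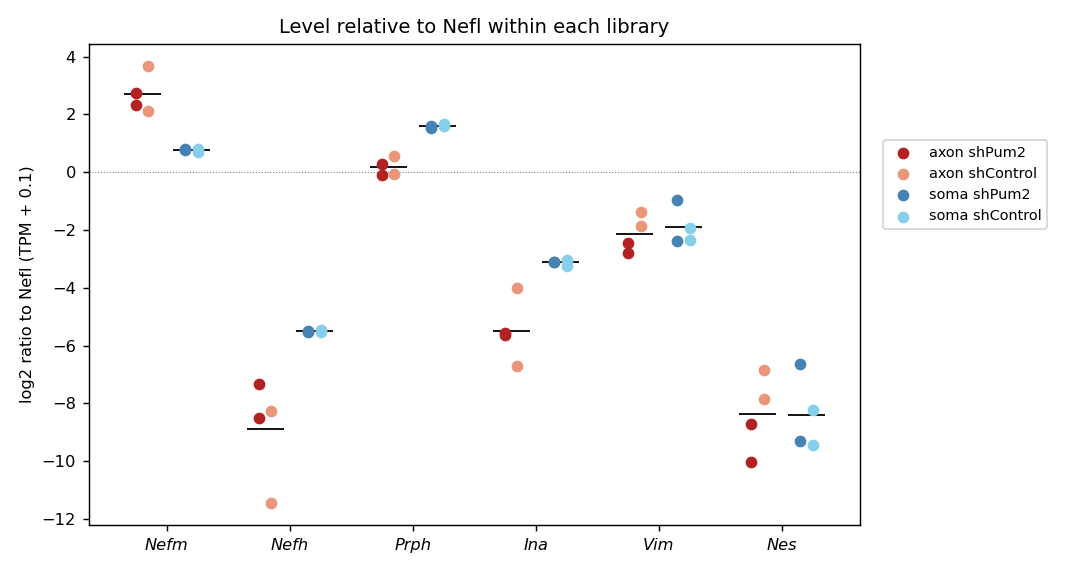
Log2 ratio of each member to Nefl within a library (TPM + 0.1), with a point per library, axonal left of somatic, and a line at the mean of each compartment. Axonal points lie above the somatic ones for Nefm and below them for Nefh, Prph and Ina, and overlap them for Vim and Nes.

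Which RNAs stood higher or lower in axonal than in somatic libraries was then tested for all genes in a single edgeR fit of the 8 libraries (12337 genes, scaled by TMM, a trimmed mean of the ratios between libraries). In shControl cultures Nefm rose 4.02-fold in axons (log2 difference 2.01, SE 0.32, adjusted p = 0.0114, edgeR), while Nefh fell 20.8-fold (log2 difference -4.38, SE 1.16, adjusted p = 0.0347) and Prph fell 2.97-fold (log2 difference -1.57, SE 0.32, adjusted p = 0.0194). The Nefh value was -6.52 without replicate 1 and -3.55 without replicate 2 of axonal shControl, and it did not pass with the replicate number as a block (adjusted p = 0.0608, edgeR) or in a fit of the 4 shControl libraries alone (0.0818). So 1 of the 7 passed as higher, where 9.41% of all genes tested did, and 2 passed as lower, where 18.5% did. In shPum2 cultures Nefm rose 5.60-fold (log2 difference 2.49, SE 0.32, adjusted p = 0.00758, edgeR), and no other member passed. That is 1 of 7 higher, against 8.45% of all genes, and 0 lower, against 16.2%. The members' median log2 difference was -0.70 with shPum2 and -0.14 with shControl, beside -0.64 and -0.75 over all genes tested.

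The counts behind this fit give Nefm another order than TPM does: it was at 23707 and 14251 CPM in axonal shPum2, 16335 and 10288 CPM in axonal shControl, 8756 and 10072 CPM in somatic shPum2 and 9954 and 10009 CPM in somatic shControl libraries. All 4 axonal values lay above all 4 somatic values in CPM, a share of reads, whereas 3 of 4 lay below them in TPM, a share of transcripts per length.

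The direction of some members here depended on the scaling. TMM factors ran from 0.478 to 0.754 in axonal and from 1.66 to 1.80 in somatic libraries. With total counts in their place the median of all genes moved to -2.03 with shPum2 and -2.35 with shControl, and Nefm had log2 differences of 1.01 (adjusted p = 0.0506, edgeR) and 0.42 (adjusted p = 0.321), so neither passed. The members that passed with total counts were all lower in axons: Prph with shPum2 (-2.26, adjusted p = 0.00198, edgeR), and Nefl (-1.72, adjusted p = 0.0140), Nefh (-5.98, adjusted p = 0.0144) and Prph (-3.15, adjusted p = 0.000804) with shControl. Relative to the median gene, Nefm stood at 3.12 and 3.04 with shPum2 under the 2 scalings and at 2.76 under both with shControl. On the same footing, Nefh stood at -3.62 and -3.64 and Prph at -0.82 and -0.81 with shControl. With shPum2 both lay closer to the median gene, Nefh at -0.86 and -1.11 and Prph at -0.06 and -0.23. Nefl had 0.75 (SE 0.35, adjusted p = 0.173, edgeR) with shPum2 and -0.14 (SE 0.35, adjusted p = 0.790) with shControl under TMM, and -0.77 with total counts with shPum2, where it did not pass (adjusted p = 0.109, edgeR). Relative to the median gene it lay between 0.61 and 1.39 under these scalings.

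The remaining members did not pass in either hairpin under TMM. Ina had log2 differences of -1.75 (SE 0.97) with shPum2 and -1.57 (SE 0.97) with shControl. Vim had -0.30 (SE 0.54) and 0.44 (SE 0.54), and Nes -1.02 (SE 1.09) and 1.05 (SE 1.09). With total counts Vim and Nes in shControl cultures turned to -1.13 and -0.54. In CPM, without any scaling factor, all 7 members had axonal and somatic libraries that did not overlap with shPum2, 6 of them lower and Nefm higher, against 69.3% of all genes lower and 11.0% higher. With shControl 5 were lower and Nefm higher, against 68.7% and 11.5%, and Nes overlapped. No gene at all passed when either somatic library of the hairpin compared was left out, and the adjusted p of Nefm was then 0.113 or 0.101 with shPum2 and 0.128 or 0.125 with shControl (edgeR). Without replicate 1 of axonal shControl Prph no longer passed (adjusted p = 0.0913, edgeR), without replicate 2 of axonal shControl Ina passed as lower (log2 difference -4.26, adjusted p = 0.0142, edgeR), and without replicate 2 of axonal shPum2 Prph passed as lower (-1.14, adjusted p = 0.0203, edgeR).

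**Figure D4:**
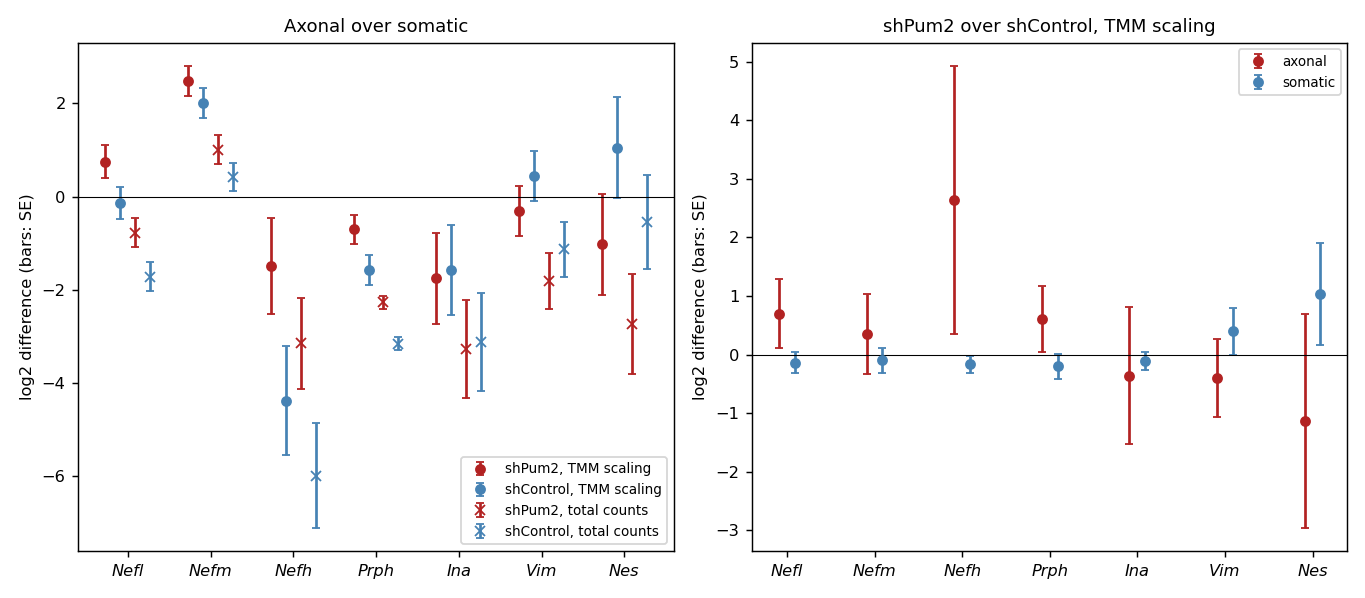
Log2 differences of the 7 genes with bars of 1 SE: axonal over somatic on the left, under TMM scaling (circles) and total counts (crosses), and shPum2 over shControl on the right. Nefm lies above 0 on the left under both scalings, and on the right the bars of axonal Nefh reach farthest.

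The somatic knockdown comparison asked whether a lower Pum2 level changed these RNAs in the somatic compartment, and none of the 7 passed. The 4 somatic libraries gave 12346 tested genes, of which 1, Pum2, was called (0.00810%). By edgeR 0 of the 7 members were called, 0 had an unadjusted p below 0.05 (0.599% of all genes did), and DESeq2 called 0. These tests did not pair libraries, though deviations from group means correlated at r = 0.780 between same-numbered somatic libraries. With the replicate number as a block in edgeR, 1 member had an unadjusted p below 0.05 and 0 were called. The share of all genes below 0.05 was not counted for that fit. The 5 neuronal members all had small negative log2 differences of shPum2 over shControl: -0.14 (SE 0.18) for Nefl, -0.09 (SE 0.21) for Nefm, -0.17 (SE 0.14) for Nefh, -0.20 (SE 0.21) for Prph and -0.11 (SE 0.15) for Ina. Over all genes 47.3% were below 0. Prph was the sole member whose libraries did not overlap in CPM, lower with shPum2, which 13.0% of all genes also showed. Without replicate 1 of somatic shPum2, Nefl (0.0036), Nefm (0.038) and Ina (0.037) turned to positive values. In the authors' deposited table, Prph had a log2 fold change of -0.16 with an adjusted p of 0.9999, and the other 4 neuronal members lay between -0.11 and -0.07. Of the 17320 genes listed there, 2 had an adjusted p below 0.05.

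Vim and Nes had the positive somatic differences, 0.40 (SE 0.40) and 1.04 (SE 0.87), and both rested on 1 library. The edgeR adjusted p was 0.9997 for each of the 7 members. Without replicate 1 of somatic shPum2 they were -0.26 and -0.60. Among the somatic libraries it also had the highest sums of fibroblast, glia and dividing-cell markers. Fibroblast markers, 10 of 10 found, summed to 8990 and 1795 CPM in somatic shPum2 and to 3526 and 1815 CPM in somatic shControl libraries. Schwann and satellite glia markers, 10 of 11 found, summed to 1522 and 406 CPM in somatic shPum2 and to 770 and 426 CPM in somatic shControl libraries. Markers of dividing cells, 3 of 4 found, summed to 58.5 and 12.1 CPM in somatic shPum2 and to 24.1 and 12.7 CPM in somatic shControl libraries. In these bulk libraries more cells of a type and more RNA per cell cannot be told apart, and the part of these cells in the Vim and Nes values was not tested.

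**Figure D5:**
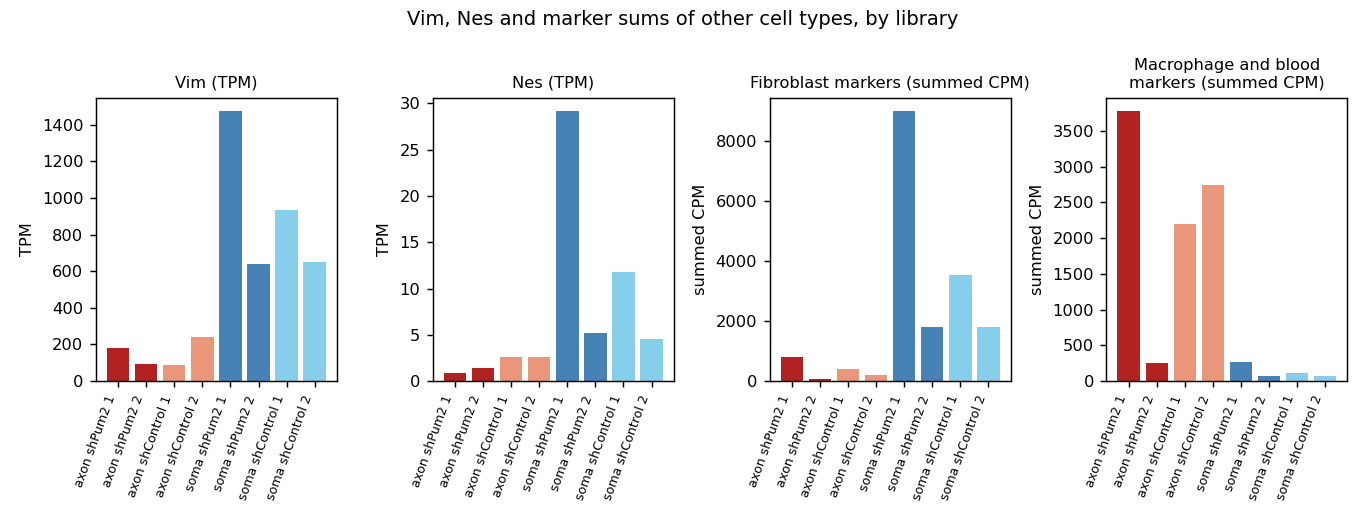
Bars per library, in 4 panels on linear axes from 0: Vim and Nes in TPM, and the summed CPM of fibroblast markers and of macrophage and blood markers. Replicate 1 of somatic shPum2 is highest in the first 3 panels, at 1473 TPM of Vim, 29.1 TPM of Nes and 8990 CPM of fibroblast markers, and macrophage and blood markers are highest in axonal shPum2 replicate 1, at 3774 CPM.

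In axons the same question gave larger differences with far larger errors, and 0 of the 7 members passed. Among 8517 genes tested in the 4 axonal libraries 0.00% were called. Of the members 0 had an unadjusted p below 0.05, where 3.02% of all genes did, and DESeq2 called 0 members. Nefl had a log2 difference of 0.70 (SE 0.59), Prph 0.61 (SE 0.57) and Nefh 2.64 (SE 2.29), and for these 3 both shPum2 libraries lay above both shControl libraries in CPM, which 15.8% of all genes showed. Nes had -1.13 (SE 1.83) with both shPum2 libraries below both shControl libraries, which 12.0% of all genes showed. Nefm (0.35, SE 0.68), Ina (-0.36, SE 1.17) and Vim (-0.40, SE 0.67) had libraries that overlapped. The edgeR adjusted p was 0.9998 for each of the 7. Without replicate 2 of axonal shControl, Ina was at 2.34 and Vim at 0.38. The biological coefficient of variation, a measure of spread between replicates, was 125% in axonal and 23.5% in somatic libraries. In the authors' deposited table, axonal Nefh had a log2 fold change of 2.39 with an adjusted p of 0.612, and the other 6 members had an adjusted p of 0.9999. Of the 17320 genes listed there, 357 had an adjusted p below 0.05.

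Markers of other cells varied widely among the axonal libraries too. Macrophage and blood markers summed to 3774 and 258 CPM in axonal shPum2 and to 2201 and 2739 CPM in axonal shControl libraries, led by Lyz2, while Itgam was at 0 in 3 of them. Schwann and satellite glia markers summed to 3400 and 86.5 CPM in axonal shPum2 and to 4698 and 161 CPM in axonal shControl libraries, mostly from Apoe, with Cdh19 at 0 in all 4. Fibroblast markers summed to 790 and 70.8 CPM in axonal shPum2 and to 411 and 218 CPM in axonal shControl libraries. Endothelial markers summed to at most 14.4 CPM in axonal libraries, with Cdh5 and Kdr at 0 in all 4. The part of these cells in the axonal values of the members was not tested.

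Whether the hairpin effect differed between compartments was tested as an interaction, in which 0 of 12337 genes passed (0.00%) and 0 of the 7 members had an unadjusted p below 0.05, where 7.81% of all genes did. DESeq2 called 609 genes but 0 members. The difference of the effects, axonal minus somatic, was 0.90 (SE 0.49, adjusted p = 0.611, edgeR) for Nefl, 0.87 (SE 0.44, adjusted p = 0.575) for Prph and 2.88 (SE 1.46, adjusted p = 0.580) for Nefh. Nefm had 0.48 (SE 0.43), Ina -0.19 (SE 1.33), Vim -0.75 (SE 0.76) and Nes -2.08 (SE 1.54). Leaving out replicate 2 of axonal shControl brought Ina to 2.49 (adjusted p = 0.0734, edgeR).

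Nes was the sole member with more than 1 transcript in the files, and the transcript to which its reads were assigned differed between compartments. The 5949-base transcript NM_012987 held 69.2% and 100% of Nes TPM in axonal shPum2, 100% in both axonal shControl, 9.87% and 0.764% in somatic shPum2 and 0.573% and 11.4% in somatic shControl libraries. The 6213-base transcript NM_001308239 held the rest. Its estimated counts were 22.9 and 0 in axonal shPum2, 0 and 0 in axonal shControl, 2016 and 487 in somatic shPum2 and 707 and 344 in somatic shControl libraries. The division of reads between these overlapping transcripts is kallisto's estimate, it was not tested, and the kit differs with the compartment.

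Genes that act on neurofilaments were followed through 57 names in 8 lists. These were other cytoplasmic filaments, lamins, keratins, linkers and transport motors. The rest were neurofilament kinases and phosphatases, turnover and small heat shock proteins, and proteins linked to Nefl mRNA. In shControl cultures 41 were tested between compartments, and 6 were higher and 13 lower in axons, beside 9.41% and 18.5% of all genes. In shPum2 cultures 6 were higher and 8 lower of 41, beside 8.45% and 16.2% of all genes. Motors of axonal transport held 3 of the 6 higher calls, with 3 of 7 motors tested higher and 1 lower in shControl cultures (median log2 difference -0.10, beside -0.75 for all genes). Kif5b, a kinesin heavy chain of anterograde transport, was at 447 and 627 CPM in axonal shControl against 194 and 184 CPM in somatic shControl libraries (log2 difference 3.08, SE 0.50, adjusted p = 0.0121, edgeR). The kinesin subunits Kif5c (1.78) and Klc1 (1.40) also rose, but with total counts Kif5c had 0.18 and did not pass and Klc1 turned to -0.18. In TPM none of these kinesin genes was clearly higher in axons. Kif5c was at 134 and 77.1 TPM in axonal against 227 and 199 TPM in somatic shControl libraries. Klc1 was at 379 and 530 TPM against 1248 and 1307 TPM, and Kif5b overlapped, at 116 and 177 TPM against 120 and 111 TPM. Dync1h1, the heavy chain of the retrograde motor dynein, fell to 6.33 and 61.8 CPM in axonal shControl, against 1678 and 1841 CPM in somatic shControl libraries (-4.14, adjusted p = 0.0300, edgeR).

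Of the 13 kinases and phosphatases tested in shControl cultures 5 fell, with a list median of -1.45. Mapk8 and Mapk10, both JNK kinases that phosphorylate neurofilament tails, fell to 0.342 and 0.665 CPM and to 0.599 and 0.739 CPM in axonal shControl, against 146 and 143 CPM and 163 and 162 CPM in somatic shControl libraries (adjusted p = 0.00645 and 0.00801, edgeR). In axonal shPum2 libraries they were at 4.21 and 4.84 CPM and at 24.7 and 5.21 CPM. Trim2, a ubiquitin ligase known to bind the light chain, fell to 22.8 and 15.9 CPM in axonal shControl, against 723 and 664 CPM in somatic shControl libraries (-3.58, adjusted p = 0.00692, edgeR). Plec, a linker between filaments and other structures, fell to 21.7 and 25.5 CPM against 758 and 691 CPM (-3.36, adjusted p = 0.0124, edgeR). Sod1, of the list linked to Nefl mRNA, rose to 418 and 394 CPM in axonal shControl against 242 and 271 CPM in somatic shControl libraries (2.24, adjusted p = 0.0201, edgeR). It had 0.66 with total counts (adjusted p = 0.124, edgeR). In TPM Sod1 was lower in axons, at 598 and 611 TPM in axonal against 825 and 913 TPM in somatic shControl libraries. The nuclear lamins Lmnb1 and Lmnb2 were close to absent in axonal shControl libraries, with 1 and 1 and with 0 and 1 counts in axonal shControl against 372 and 404 and 680 and 912 counts in somatic shControl libraries. With shPum2 neither passed: Lmnb1 had 73 and 2 counts in axonal against 676 and 514 counts in somatic shPum2 libraries (-1.79, adjusted p = 0.449, edgeR), and Lmnb2 had 11 and 0 counts in axonal against 970 and 942 counts in somatic shPum2 libraries (-5.21, adjusted p = 0.0911, edgeR). In all, the other cytoplasmic filaments had 1 of 4 lower, the lamins 2 of 3, the keratins 1 of 3 and the linkers 2 of 3, with no higher call in these 4 lists. Among these, the calls of Bfsp1, Krt80 and Ppl rest on few counts. They had 16 and 21, 17 and 30, and 8 and 20 counts in somatic shControl libraries, and 0 in both axonal shControl libraries. Turnover and small heat shock genes had Stub1 higher (1.67, but 0.08 with total counts) and Trim2 lower of 4 tested. Stub1 too was lower by TPM, at 173 and 111 TPM in axonal against 298 and 315 TPM in somatic shControl libraries. The proteins linked to Nefl mRNA had Sod1 higher of 4. No gene was called in shControl cultures without either somatic shControl library.

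The hairpin comparisons gave no call by edgeR among these genes, and a few by DESeq2. By edgeR 0 of 42 passed in somatic libraries, with 0 at an unadjusted p below 0.05 (0.599% of all genes) and 0 by DESeq2. With the replicate number as a block in edgeR, 3 of the 42 had an unadjusted p below 0.05 and 0 were called. For that blocked fit the share of all genes below 0.05 was not counted, and 0.599% belongs to the fit without a block. In axonal libraries 0 of 33 passed, with 1 at an unadjusted p below 0.05 (3.02% of all genes) and 1 by DESeq2, which called 159 genes in all, and the gene was Hspb1 in both cases. In the interaction 0 of 41 passed, with 6 at an unadjusted p below 0.05 (7.81% of all genes), and DESeq2 called 4 of its 609 genes here, namely Cdk5r2, Gsk3b, Mapk10 and Hspb1. The DESeq2 genes of the interaction were named after their values were seen.

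The profiles most like each member were sought among 7614 genes with a symbol and a mean of at least 10 CPM, by the root-mean-square difference of log2(CPM + 1) over the 8 libraries after centring each gene. Mff (0.128) and Spryd7 (0.153) were closest to Nefl, and Prmt1 (0.136) and Rabepk (0.170) to Nefm. Rufy3 (0.118) and Rnf20 (0.151) were closest to Prph, Nsd2 (0.275) and Tle4 (0.288) to Nefh, and Hspa4 (0.248) and Pfkm (0.286) to Ina. Tpm4, a tropomyosin, was closest to Vim (0.156), followed by Mtdh (0.319), and Sparc, a secreted matrix protein, was closest to Nes (0.463), followed by Mdm2 (0.551). No member was among the 2 genes nearest to another. The libraries share compartment, kit and depth, and between 6.11% and 23.9% of the 7614 genes lay within a difference of 1 of a given member, so this likeness is a description.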

How the data were processed

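The authors' deposited file of each of the 8 libraries lists estimated counts and TPM for 18321 RefSeq transcripts, per the file headers, with lengths in bases. The submitters' processing notes name kallisto, DESeq2 and the build Rnor_6.0, without tool versions. The authors' 2 deposited comparison tables give, per the file headers, p-values, a test statistic (a score), the log2 fold change (shPum2 over shControl), its standard error and a mean signal after normalisation.

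Transcripts were given symbols from a RefSeq table of assembly GRCr8 (94.8% matched). The estimated counts of a gene's transcripts were added and rounded, and CPM were taken over library totals. Library totals ranged from 11641980 to 25821800 counts. Tests used edgeR 4.0.16 in R 4.3.3 (quasi-likelihood, TMM, its expression filter) with Benjamini-Hochberg adjustment over all genes tested and a threshold of 0.05: the 4 libraries of a compartment for the hairpin, and all 8 libraries for compartment and interaction. The SE was the log2 difference over the root of the F statistic. TPM ratios to Nefl were tested with a two-sided exact permutation test on log2 values (pseudocount 0.1 TPM). The alternatives were DESeq2 1.42.0, other scalings, no expression filter, the replicate number as a block, other sets of libraries, another pseudocount, full transcript length and each library left out in turn. The fits were tested on simulated data.

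The members, the related lists and the markers were chosen with earlier results of these data known. Named beyond the members were Pum2, from each related list up to 4 genes per comparison by smallest p, and the 2 nearest profiles of each member. Reads shared between similar transcripts were divided by the authors' estimate. Promoter sequences came from a RefSeq table of assembly GRCr8, while a genome of the authors' build and protein sequences were not used here. The result of 1 gene of the lists is not reported here, though the counts include it.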

Additional observations from a re-analysis of the deposited data

How the results depend on the processing

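Of the 7 members, 0 passed in the somatic, axonal and interaction comparisons under any alternative run. With shControl between compartments, 3 passed as reported, 2 with the replicate block (Nefh missed, adjusted p = 0.0608, edgeR) or in a fit of its 4 libraries (Nefh missed, 0.0818), 2 with DESeq2 (Prph missed, 0.0787) or its size factors (Prph missed, 0.0958), and 3 with total counts, where Nefl passed as lower and Nefm did not pass. With shPum2, 1 passed as reported, 1 with total counts (Prph in place of Nefm) and 0 in a fit of that hairpin's 4 libraries (Nefm missed, 0.0519). The labels do not say that replicate numbers pair libraries. Deviations from group means correlated at r = 0.780 between same-numbered somatic libraries and at 0.0521 to 0.147 between others. Leaving out a library gave 0 to 2 members with shPum2 and 0 to 4 with shControl. With the replicate block the ratios of Nefm (1.95), Nefh (-3.38), Prph (-1.43) and Ina (-2.37) to Nefl had an adjusted p of 0.188 (exact permutation, smallest p for 4 pairs 0.125). Leaving out a library kept their signs, at 1.63 to 2.15, -3.90 to -2.53, -1.56 to -1.34 and -2.86 to -1.95 (adjusted p = 0.0857, exact permutation), while Vim (-0.46 to 0.10) and Nes (-0.47 to 0.63) changed sign.

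The signs that changed with another setting were, between compartments with shControl, Nefl (0.17 with DESeq2 or its size factors), Vim (-1.13), Nes (-0.54) and Klc1 (-0.18 with total counts, as for Vim and Nes), and with shPum2 Nefl (-0.77 with total counts). Axonal Ina was at 0.54 and its interaction at 0.26 with the replicate block. With a library left out, the somatic hairpin effects ran from -0.31 to 0.0036 (Nefl), -0.24 to 0.038 (Nefm), -0.28 to 0.037 (Ina), -0.26 to 0.85 (Vim) and -0.60 to 1.85 (Nes). Axonal hairpin effects ran from -1.20 to 2.34 (Ina) and -0.87 to 0.38 (Vim), and interactions from -1.06 to 2.49 (Ina) and -1.26 to 0.024 (Vim). Compartment differences ran from -0.76 to 0.30 (Vim) and -2.16 to 0.56 (Nes) with shPum2, and from -0.62 to 0.28 (Nefl) and -0.35 to 1.01 (Vim) with shControl. The cause was not tested.

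Over all genes, the somatic comparison had 1 call, 2 with DESeq2, 0 in a fit of all 8 libraries and 0 to 1 with a library left out. The axonal one had 0, 159 with DESeq2, 6 without the filter and up to 31 with a library left out. The interaction had 0, 609 with DESeq2 and up to 713. Between compartments 1042 genes were higher and 2004 lower with shPum2 (538 and 3015 with total counts), and 1161 and 2284 with shControl (609 and 3606). Leaving out a library gave 0 to 4862 and 0 to 4664 calls. Low axonal counts limit Nefh and Nes.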

Other observations

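Hspb1, a small heat shock protein known to act on intermediate filaments, was at 0.0859 and 0 CPM in axonal shPum2 against 18.8 and 19.5 CPM in axonal shControl libraries, which rest on 1 and 0 against 220 and 264 counts. In somatic libraries it was at 13.2 and 3.21 CPM with shPum2 against 7.83 and 3.32 CPM with shControl, highest in the library with the highest sum of fibroblast markers. The axonal difference did not pass (unadjusted p = 0.0188, adjusted p = 0.9998, edgeR quasi-likelihood).

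For the somatic knockdown, the authors' deposited table gives Vim a log2 fold change of 0.06 and Nes one of 0.04. For the same libraries the edgeR fit gave 0.40 and 1.04, and DESeq2 run here without shrinkage gave 0.40 (SE 0.571) and 1.05 (SE 1.16), beside standard errors of 0.0843 and 0.0466 in the authors' deposited table. For axonal libraries the authors' deposited table gives -0.40 and -0.96, and the edgeR fit gave -0.40 and -1.13. The adjusted p was 0.9999 for each value in the authors' deposited tables.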
